A study of Mus musculus with 16 samples.

Results

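The carbohydrate sulfotransferases are Golgi enzymes that transfer sulphate to the sugar chains of proteoglycans and glycoproteins, and 10 genes of the Chst family were followed here among the 55385 genes of the deposited tables. The members were Chst1, Chst2, Chst3, Chst7, Chst8, Chst10, Chst11, Chst12, Chst14 and Chst15, and they were selected on these data because Chst12 was among the genes with the largest decrease after bicuculline. The bicuculline response of the control cultures is therefore given for them as a description without a test. The rule names no shRNA, so the response of Chst12 itself is a description in the knockdown cultures too, whereas the other members, whose own values did not enter the rule, are tested there. All 10 members had enough counts to be among the 17222 genes tested. Of the remaining Chst genes in the tables, Chst4, Chst5, Chst9 and Chst13 did not, with at most 15 counts in any library.

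RNA was sequenced from primary hippocampal cultures of newborn C57Bl/6N mice, which hold neurons together with glia. The cultures were infected with a recombinant adeno-associated virus that carried a control short hairpin RNA (Control-shRNA) or one against the long isoform of the DNA methyltransferase Dnmt3a (Dnmt3a1-shRNA2, named shDnmt3a1 in the sample labels). Each shRNA was studied at baseline (0 h) and after 4 h of bicuculline, a blocker of GABA-A receptors that raises the activity of the neuronal network, with 4 libraries in each of the 4 groups and 16 in all. The shRNA was driven by a U6 promoter and the same virus expressed GFP from a chicken β-actin promoter, so neither is restricted to neurons by its promoter, and all 4 groups carry the virus. The study chose its viral serotype for tropism to neurons, a reason it gives with the injections into mice. Libraries of a group are independent neuronal preparations according to the study.

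Sulphate is carried into the Golgi as the activated donor PAPS, and each sulfotransferase places it on a particular position of a particular sugar. On chondroitin sulphate, Chst11 and Chst12 act on the 4-O position of N-acetylgalactosamine, Chst3 and Chst7 act on the 6-O position, and Chst15 adds a further sulphate to units that already carry one at the 4-O position. Chst14 acts on the 4-O position in dermatan sulphate. Chst1 and Chst2 are 6-O-sulfotransferases of galactose and of N-acetylglucosamine, the units of keratan sulphate, Chst10 makes the HNK-1 epitope of neural adhesion molecules, and Chst8 sulphates N-acetylgalactosamine on N-linked glycans. In the brain, chondroitin sulphate chains on aggrecan and related proteoglycans are a main part of the perineuronal nets that surround some neurons.

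The start regions of 3 members are shown: Chst12, whose decrease led to the choice of the family, Chst11, which catalyses the same reaction but did not decrease, and Chst1, the most abundant member at baseline, which was called lower after bicuculline. The sequences are from RefSeq on GRCm38.p6 and run 5′ to 3′ on the plus strand over 300 bases that end 50 bases after the annotated start. Capitals mark matches on either strand to the CCAAT box (letters CCAAT) and the GC box (letters GGGCGG), and none of the marked matches overlap.
Chst12, chr5:140505359-140505658: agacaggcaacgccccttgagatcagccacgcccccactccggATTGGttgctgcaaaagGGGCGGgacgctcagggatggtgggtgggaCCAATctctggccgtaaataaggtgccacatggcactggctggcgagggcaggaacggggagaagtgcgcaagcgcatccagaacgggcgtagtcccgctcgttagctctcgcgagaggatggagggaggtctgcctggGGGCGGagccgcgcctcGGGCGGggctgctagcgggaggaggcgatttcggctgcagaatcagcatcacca
Chst11, chr10:82985247-82985546: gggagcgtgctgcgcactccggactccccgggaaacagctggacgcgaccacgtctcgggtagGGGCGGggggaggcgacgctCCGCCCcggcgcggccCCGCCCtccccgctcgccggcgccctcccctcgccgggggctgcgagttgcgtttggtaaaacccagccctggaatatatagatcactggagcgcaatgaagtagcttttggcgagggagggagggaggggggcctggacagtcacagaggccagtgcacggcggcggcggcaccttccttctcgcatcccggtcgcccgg
Chst1, chr2:92600867-92601166: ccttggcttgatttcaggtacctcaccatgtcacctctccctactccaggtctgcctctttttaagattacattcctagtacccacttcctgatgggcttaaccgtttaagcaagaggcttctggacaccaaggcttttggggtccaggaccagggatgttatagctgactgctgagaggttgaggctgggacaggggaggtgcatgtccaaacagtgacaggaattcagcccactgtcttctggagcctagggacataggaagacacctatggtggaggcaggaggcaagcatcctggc
The Chst12 window held 2 CCAAT boxes, 3 GC boxes and 24 CpG dinucleotides, the Chst11 window held 0 CCAAT boxes, 3 GC boxes and 34 CpG dinucleotides, and the Chst1 window held no match to either motif and 1 CpG dinucleotide. The Chst1 window lies inside the annotated gene, which begins upstream at position 92599707 of chromosome 2. Over all 32851 RefSeq promoters of the same 300 bases, 37.4% held a CCAAT box and 35.7% a GC box, and the median number of CpG dinucleotides was 7. All 10 members matched the promoter table, with 11 promoters, of which 4 held a CCAAT box and 9 a GC box. On either strand, the CRE half-site (TGACG) was found in 1 of the 11 against 20.8% of all promoters, the E-box (CACGTG) in 1 against 7.15%, and the AP-1 site (TGANTCA) in 0 against 7.81%. These matches describe the letters of the windows only.

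The targeted gene was examined first. Dnmt3a had 293 to 338 CPM (library-scaled counts, with TMM normalisation) in the 8 Control-shRNA libraries and 39.4 to 48.1 CPM in the 8 Dnmt3a1-shRNA2 libraries, with no overlap. The log2 fold change was −2.81 (SE 0.06) at baseline and −2.85 (SE 0.06) with bicuculline, with edgeR adjusted p-values of 8.86e-15 and 7.43e-15. The files sum the transcripts of a gene, so the isoforms Dnmt3a1 and Dnmt3a2 were not separated. The libraries held 28912697 to 29586355 counted read pairs, so depth hardly differed between groups. The mitochondrial share of the counts was 2.8% to 4.75% in Control-shRNA at baseline, 3.34% to 5.86% in Control-shRNA with bicuculline, 2.73% to 5.99% in Dnmt3a1-shRNA2 at baseline and 3.58% to 6.6% in Dnmt3a1-shRNA2 with bicuculline. Within replicate numbers it was higher after bicuculline in 3 of 4 numbers of Control-shRNA and 4 of 4 of Dnmt3a1-shRNA2, and higher with Dnmt3a1-shRNA2 in 3 of 4 at baseline and 4 of 4 with bicuculline, and its part in the results was not tested.

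Chst12 (chromosome 5, 140505550 to 140525724, plus strand), one of the pair of chondroitin 4-O-sulfotransferases, was about 5-fold lower after bicuculline in both shRNAs. At baseline the Dnmt3a1-shRNA2 libraries had 28.3, 32.2, 22.8 and 27 CPM, and after bicuculline they had 4.55, 4.96, 6.24 and 4.84 CPM. Every bicuculline library was below every baseline library. The log2 fold change was −2.42 (SE 0.15; 95% interval −2.73 to −2.11), a 5.35-fold decrease. In the Control-shRNA libraries the values were 25.4, 26.2, 21.0 and 21.9 CPM at baseline and 3.39, 5.82, 5.32 and 4.74 CPM after bicuculline, a log2 fold change of −2.29 (SE 0.15), again without overlap. Among the 13880 genes that averaged 1 CPM or more, the decrease of Chst12 ranked 4 from the lowest in the control cultures and 3 in the knockdown cultures. In RNA from mixed cultures, fewer cells of a type and less RNA per cell cannot be told apart. The shRNA itself left Chst12 without a detected change: the log2 difference between Dnmt3a1-shRNA2 and Control-shRNA was 0.22 (95% interval −0.06 to 0.50; edgeR adjusted p = 0.286) at baseline and 0.10 (−0.24 to 0.43; edgeR adjusted p = 0.728) with bicuculline, where it was below 0 when TPM replaced the scaled counts. The bicuculline response of Chst12 differed between the shRNAs by −0.13 on the log2 scale (95% interval −0.56 to 0.31), given without a test because the choice of the gene used it in part.

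Chst11 (chromosome 10, 82985498 to 83195900, plus strand), the other enzyme of the pair, did not share the decrease. The Control-shRNA libraries had 91.7, 92.9, 94.2 and 93.95 CPM at baseline and 95.1, 107.6, 101.3 and 102.6 CPM after bicuculline. The Dnmt3a1-shRNA2 libraries had 103.0, 109.4, 114.8 and 111.9 CPM at baseline and 123.3, 115.4, 121.2 and 123.8 CPM after bicuculline. In CPM the baseline and bicuculline libraries did not overlap within either shRNA, and each knockdown group lay above the control group of the same condition. After bicuculline in the knockdown cultures the log2 fold change was 0.14 (SE 0.05; edgeR adjusted p = 0.0319), under the fold threshold of 0.5. Its adjusted p-value stayed under 0.05 in 11 of the 16 fits that left out 1 library and in 5 of 10 other alternatives, and the fold change was −0.01 when libraries were scaled by their sizes only and −0.05 with TPM. That scaling moved the median of all genes by −0.149 (log2), and relative to it Chst11 was higher. Between the shRNAs, the log2 difference was 0.24 (SE 0.05; edgeR adjusted p = 0.00383) at baseline and 0.25 (SE 0.05; edgeR adjusted p = 0.00246) with bicuculline. With library sizes only these became 0.16 and 0.18, with adjusted p-values of 0.134 and 0.08. With log2(TPM + 1) they were 0.115 and 0.144, with limma adjusted p-values of 0.463 and 0.33. In TPM the libraries of the shRNAs overlapped in both conditions. The span of Chst11 holds Gm10773, 1700025N21Rik and Gm23122 on the opposite strand, and their annotated exons share 0 bases with those of Chst11.

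**Figure D1:**
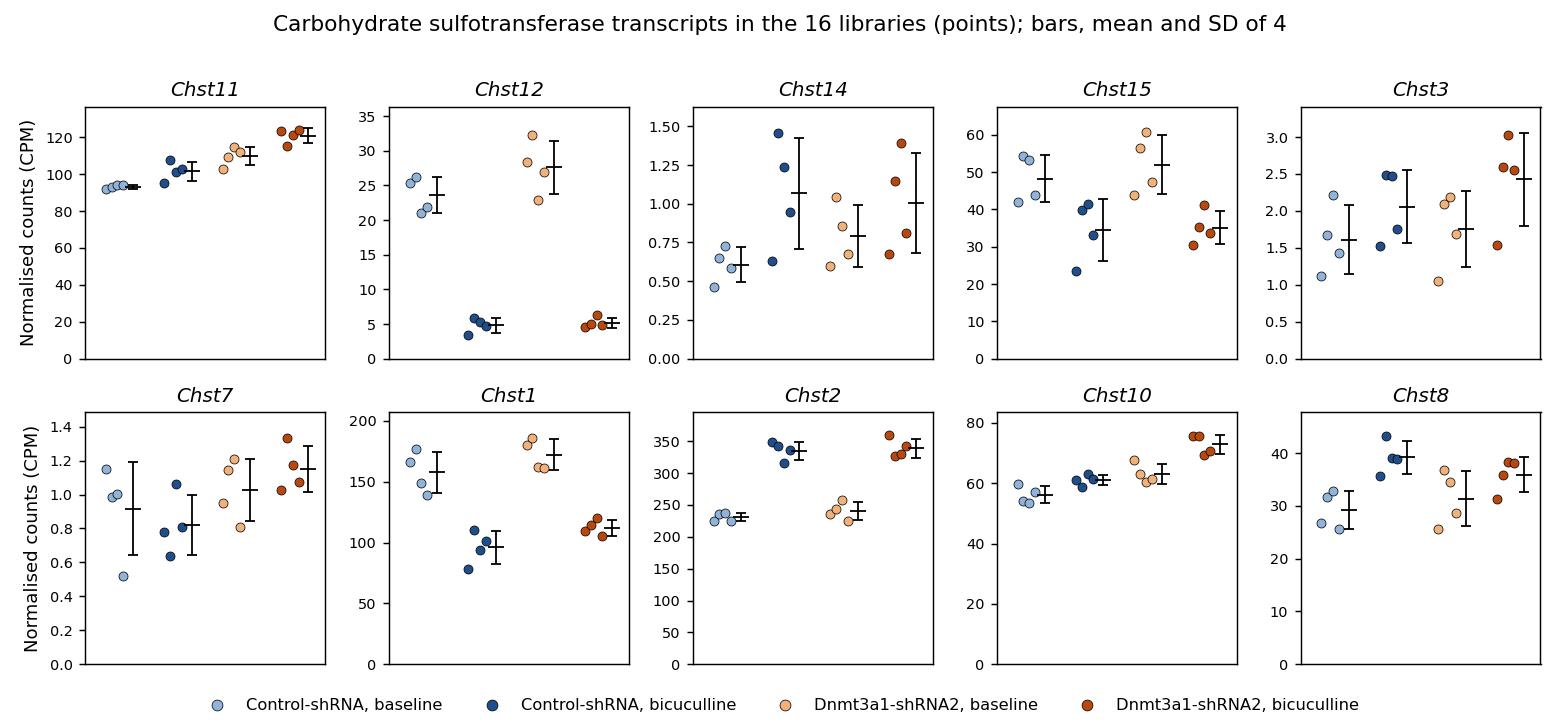
Normalised counts (CPM, linear axes from 0) of the 10 carbohydrate sulfotransferases in the 16 libraries, by shRNA and condition. Each point is 1 library, and the bars give the mean and SD of 4; Chst12 lay between 21.0 and 32.2 CPM in the 8 baseline libraries and between 3.39 and 6.24 CPM in the 8 bicuculline libraries.

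Because the pair responded differently, the share of Chst12 in their summed transcripts changed. On the TPM scale, which is per transcript length, Chst12 made up 43.4% ± 2.89 (SD, n = 4) of the sum of Chst11 and Chst12 in Control-shRNA at baseline and 12.5% ± 3.62 after bicuculline. In Dnmt3a1-shRNA2 the shares were 43.5% ± 3.62 and 11% ± 1.87. The lowest baseline library (38.7%) was far above the highest bicuculline library (17.1%). Both this share and the ratio that follows hold Chst12, whose decrease led to the choice of the family. Their shifts restate that decrease in large part and are given as descriptions. The ratio of the 4-O-sulfotransferases (Chst11 and Chst12) to the 6-O-sulfotransferases (Chst3 and Chst7) was 41.0, 42.0, 33.5 and 60.4 in Control-shRNA at baseline and between 22.6 and 33.1 after bicuculline, with the highest in replicate 2. In Dnmt3a1-shRNA2 it was 53.8, 42.2, 36.1 and 53.5 at baseline and 28.6, 22.5, 23.6 and 25.8 after bicuculline. The groups did not overlap within either shRNA, but the nearest control libraries, 33.5 and 33.1, were close. The mean ratio went from 44.2 ± 11.4 to 28.7 ± 4.39 (SD, n = 4) in the control cultures and from 46.4 ± 8.73 to 25.1 ± 2.69 in the knockdown cultures, given without a test. From sums of CPM in place of TPM, the means went from 47.9 to 37.8 and from 51.4 to 36.5. The 6-O-sulfotransferases in the denominator rest on 16 to 85 counts a gene and library.

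**Figure D2:**
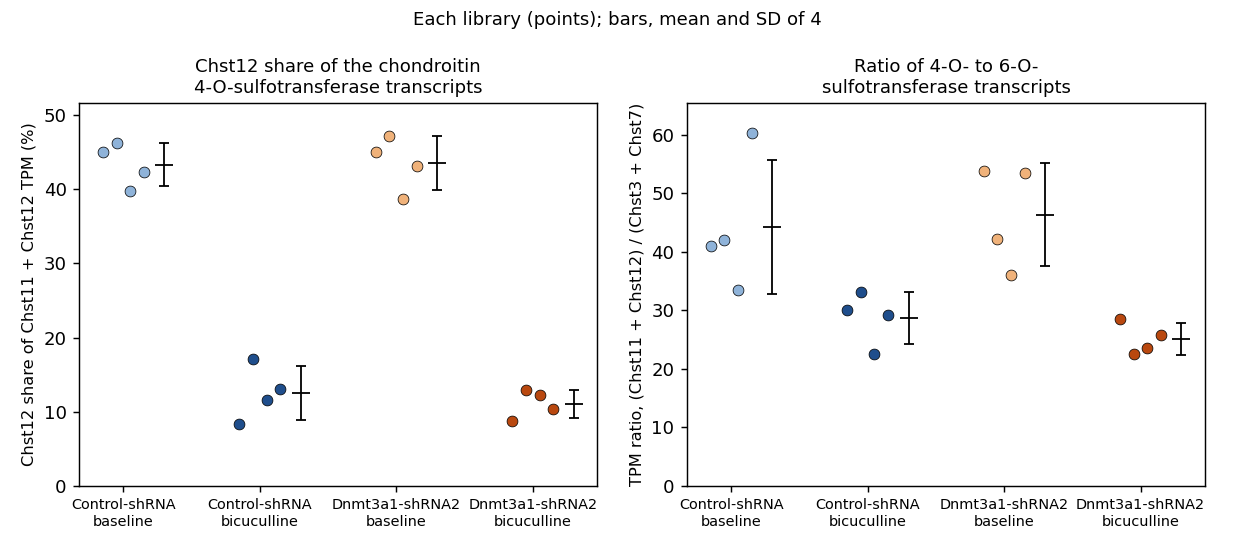
Left, the share of Chst12 in the summed TPM of Chst11 and Chst12 (percent); right, the TPM ratio of Chst11 and Chst12 to Chst3 and Chst7 (linear axes from 0). Each point is 1 library, and the bars give the mean and SD of 4. The Chst12 share was 38.7% to 47.2% in the baseline libraries and 8.34% to 17.1% in the bicuculline libraries. Both panels hold Chst12, whose decrease led to the choice of the family, and are descriptions.

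Chst15 (chromosome 7, 132235780 to 132317228, minus strand), which makes the disulphated unit of chondroitin sulphate, was lower after bicuculline. The Dnmt3a1-shRNA2 libraries had 43.9, 56.4, 60.65 and 47.2 CPM at baseline and 30.45, 35.4, 41.2 and 33.6 CPM after bicuculline, without overlap. The log2 fold change was −0.57 (SE 0.15; 95% interval −0.89 to −0.24; edgeR adjusted p = 0.00568). Without replicate 3 of the Dnmt3a1-shRNA2 baseline group it was −0.48, which no longer passed the fold threshold. The Control-shRNA libraries had 41.9, 54.3, 53.1 and 43.9 CPM at baseline and 23.4, 39.98, 41.6 and 33.1 CPM after bicuculline, a log2 fold change of −0.48 (SE 0.15). The exons of Chst15 share 1206 bases with those of Gm10584 on the opposite strand, and since the use of strand in the counting is not given, reads in that stretch are uncertain. They share 0 bases with the exons of Fgfr2 and Gm44891, whose spans Chst15 also overlaps. Between the shRNAs, Chst15 differed by 0.11 (95% interval −0.21 to 0.43) at baseline and 0.03 (−0.30 to 0.35) with bicuculline on the log2 scale, with edgeR adjusted p-values of 0.696 and 0.930, and both differences were below 0 on the TPM scale.

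The remaining chondroitin and dermatan enzymes were scarce. Chst14, the dermatan 4-O-sulfotransferase, had 14 to 41 counts in a library, Chst7 had 16 to 38 and Chst3, the main chondroitin 6-O-sulfotransferase, had 30 to 85. In the knockdown cultures after bicuculline, the log2 fold changes were 0.34 (95% interval −0.26 to 0.94) for Chst14, 0.16 (−0.32 to 0.65) for Chst7 and 0.47 (−0.08 to 1.02) for Chst3. Their edgeR adjusted p-values were 0.354, 0.597 and 0.159. In each case the libraries of the groups overlapped, and the intervals are wide enough to hold a change beyond the fold threshold. A fit with the replicate number as a block gave edgeR adjusted p-values of 0.15 for Chst14, 0.516 for Chst7 and 0.00709 for Chst3. Within replicate numbers of these cultures Chst3 and Chst14 were higher after bicuculline in 4 of 4, and Chst7 in 3 of 4. Chst7 was slightly below 0 on the TPM scale, at −0.01. In the control cultures that chose the members, the log2 fold changes were 0.81 (SE 0.29) for Chst14, −0.15 (SE 0.24) for Chst7 and 0.35 (SE 0.26) for Chst3.

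Chst1 and Chst2, the 6-O-sulfotransferases that act on the units of keratan sulphate, moved in opposite directions. Chst1 (chromosome 2, 92599707 to 92615250, plus strand) had 180.4, 186.2, 161.7 and 160.9 CPM in Dnmt3a1-shRNA2 at baseline and 109.2, 114.8, 120.2 and 105.2 CPM after bicuculline. All bicuculline libraries were below all baseline libraries, and the log2 fold change was −0.62 (SE 0.10; 95% interval −0.82 to −0.41; edgeR adjusted p = 4.21e-05). In Control-shRNA the libraries had 166.1, 176.7, 148.9 and 138.7 CPM at baseline and 77.95, 110.6, 94.2 and 101.5 CPM after bicuculline, a log2 fold change of −0.71 (SE 0.10). Replicate 1 of the Control-shRNA bicuculline group had the lowest value for Chst1, and also for Chst12 and Chst15. Chst2 (chromosome 9, 95399292 to 95406722, minus strand) had 235.0, 243.4, 258.3 and 224.1 CPM in Dnmt3a1-shRNA2 at baseline and 359.1, 326.0, 329.3 and 342.1 CPM after bicuculline. It was higher in every bicuculline library, and its log2 fold change of 0.497 (SE 0.05; edgeR adjusted p = 8.74e-07) was just under the fold threshold. DESeq2 put it at 0.52 and called it, whereas with library sizes only it was 0.34. In Control-shRNA, Chst2 had 224.7, 235.1, 237.9 and 225.3 CPM at baseline and 348.0, 341.9, 315.5 and 335.4 CPM after bicuculline, a log2 fold change of 0.54 (SE 0.05).

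Chst10 (chromosome 1, 38863867 to 38898161, minus strand), the HNK-1 sulfotransferase, moved little. The Control-shRNA libraries had 59.6, 54.15, 53.6 and 57.2 CPM at baseline and 60.9, 58.8, 62.95 and 61.3 CPM after bicuculline, and the Dnmt3a1-shRNA2 libraries had 67.9, 62.9, 60.5 and 61.35 CPM at baseline and 75.7, 75.6, 69.4 and 70.7 CPM after bicuculline. The bicuculline libraries lay above the baseline libraries in the knockdown cultures, and each knockdown group lay above the control group of its condition. The log2 fold change after bicuculline in the knockdown cultures was 0.21 (SE 0.06; edgeR adjusted p = 0.00521), under the fold threshold, but 0.06 (adjusted p = 0.372) with library sizes only and −0.02 on the TPM scale. The difference between the shRNAs was 0.17 (SE 0.06; edgeR adjusted p = 0.0448) at baseline and 0.26 (SE 0.06; edgeR adjusted p = 0.00396) with bicuculline, and 0.09 (adjusted p = 0.248) and 0.18 (adjusted p = 0.0151) with library sizes only. With log2(TPM + 1) the differences were 0.069 and 0.132, with limma adjusted p-values of 0.516 and 0.169, and the TPM libraries of the shRNAs overlapped. The baseline difference kept an edgeR adjusted p-value under 0.05 in 8 of the 16 fits that left out 1 library. Chst8 (chromosome 7, 34674468 to 34812711, minus strand), which acts on N-linked glycans, ranged from 25.6 to 36.8 CPM at baseline and from 31.3 to 38.3 CPM after bicuculline in Dnmt3a1-shRNA2, with overlap. Its log2 fold change was 0.19 (95% interval −0.04 to 0.43; edgeR adjusted p = 0.173) there, and with the replicate number as a block edgeR gave an adjusted p of 0.0249. In the control cultures it was 0.42 (SE 0.11), where 25.6 to 32.8 CPM at baseline and 35.7 to 43.3 CPM after bicuculline did not overlap.

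**Figure D3:**
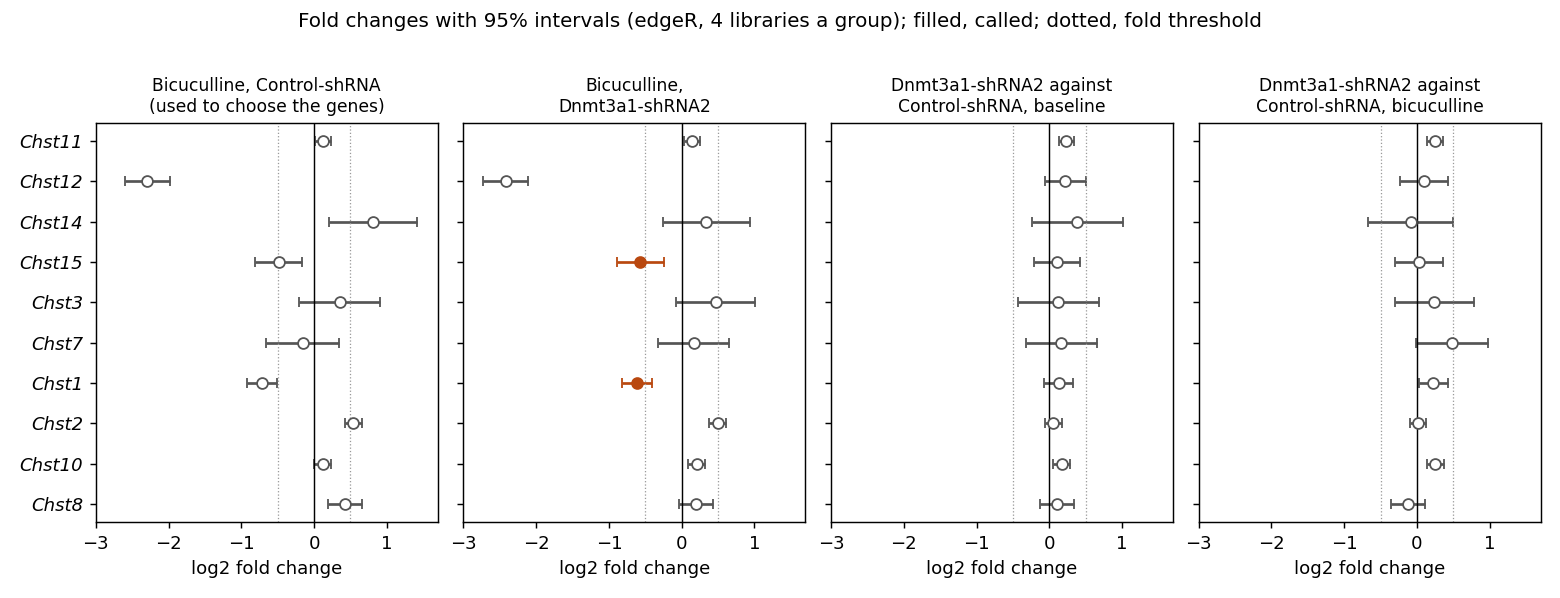
log2 fold changes of the 10 members in the 4 comparisons, with 95% intervals from edgeR (4 libraries a group). Filled points were called by the adjusted p-value and the fold threshold (dotted lines at −0.5 and 0.5): Chst15 and Chst1 after bicuculline in the knockdown cultures. The control panel and the bicuculline response of Chst12 are drawn open, as descriptions.

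Counted over the family, 3 of the 10 members, Chst12, Chst1 and Chst15, were past both thresholds downwards after bicuculline in the knockdown cultures. The thresholds were an adjusted p under 0.05 and a log2 fold change beyond 0.5, and 13.2% of all 17222 genes were called lower. Chst12 was chosen for its decrease, so wherever it enters the counts of these cultures it is a description, and the other members are the tested ones. None of the 10 was called higher, where 12.6% of all genes were. By edgeR 6 of the 10 had an unadjusted p under 0.05 there, and 6 passed the adjusted p-value, as did 7919 of all 17222 genes. Voom with limma called 3 members and 4436 of all genes, and DESeq2 called 4 members and 4310 of all genes. By the adjusted p-value alone, 3 were higher, Chst2, Chst10 and Chst11, where 20.8% of all genes were. The libraries of 6 of the 10 did not overlap, and this was so for 40.4% of all genes. The median log2 fold change of the members was 0.18, and that of all genes was −0.01. In the control cultures the counts hold Chst12, whose decrease led to the choice of the members, and are given as a description. There 2 were past both thresholds downwards (Chst12 and Chst1) and 2 upwards (Chst2 and Chst14), against 11.1% and 10.8% of all genes. The libraries of 6 did not overlap, against 39.7%, but those of Chst14, with 14 to 41 counts a library, did.

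The shRNA called no member. In the comparison of Dnmt3a1-shRNA2 with Control-shRNA at baseline, 0 of 10 members were called by edgeR, voom with limma or DESeq2. By edgeR 1.76% of all genes were called higher and 4.07% lower, and voom with limma and DESeq2 called 997 and 993 genes. Among the members 2 had an unadjusted p under 0.05, and 2809 of all 17222 genes passed the adjusted p-value, a stricter limit. With bicuculline, 0 of 10 were called by the 3 tools, against 2.0% and 3.9% of all genes by edgeR. Voom with limma called 1017 of all genes and DESeq2 1022. Here 3 members had an unadjusted p under 0.05, and 3046 of all genes passed the adjusted p-value. By the adjusted p-value alone, Chst10 and Chst11 were higher in both comparisons, against 8.12% of all genes at baseline and 7.69% with bicuculline. The libraries of these 2 did not overlap in CPM, against 19.9% and 20.9%, but they overlapped in TPM. The fitted difference was above 0 for 10 of 10 members at baseline, with a median of 0.15 on the log2 scale. With bicuculline it was above 0 for 8 of 10, with a median of 0.16. The medians of all genes were 0.007 and −0.006. The median absolute difference was 0.147 and 0.177 for the members, no larger than the 0.174 and 0.186 of all genes. With log2(TPM + 1), Chst2, Chst8 and Chst15 turned below 0 at baseline, and Chst2, Chst12 and Chst15 did so with bicuculline. Library sizes alone moved the median of all genes by −0.08 and −0.07 in these comparisons, and with that scaling Chst2 was below 0 at baseline and Chst2 and Chst15 with bicuculline. Both comparisons share the control libraries with the comparison that chose the members. For the difference in bicuculline response between the shRNAs, edgeR called 0 of 17222 genes (0.0%), with 852 at an unadjusted p under 0.05, and 0 of the 9 members tested, with 0 at an unadjusted p under 0.05. DESeq2 called 18 genes for the difference and none of the members, and voom with limma called 0. The intervals of the difference, on the log2 scale, were −0.19 to 0.38 for Chst1 and −0.54 to 0.38 for Chst15, but they were wide for Chst14, from −1.32 to 0.38, and for Chst7, from −0.38 to 1.015, and so hold differences beyond the fold threshold in either gene.

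Levels can be compared between members only per transcript length. In TPM, Chst1 was the most abundant member at baseline in both shRNAs, with 131.6 ± 14.1 (SD, n = 4) in Control-shRNA and 132.6 ± 7.49 in Dnmt3a1-shRNA2. It was followed in Control-shRNA by Chst2 (67.4 ± 5.42) and Chst10 (46.4 ± 1.54), each without overlap with its neighbour. Chst11 (36.4 ± 2.30), Chst8 (34.4 ± 5.91), Chst12 (27.9 ± 2.54) and Chst15 (22.9 ± 4.14) came next, and neighbours among these 4 overlapped. Chst7, Chst14 and Chst3 were all under 1 TPM on average and overlapped. After bicuculline Chst2 (84.5 ± 2.31) was the most abundant in Control-shRNA and Chst1 (69.8 ± 12.1) was second, without overlap. In Dnmt3a1-shRNA2 after bicuculline Chst2 (79.5 ± 3.70) and Chst1 (75.8 ± 8.68) overlapped. Chst12 dropped below Chst15 in both shRNAs after bicuculline, to 5.05 ± 1.98 TPM and 4.74 ± 1.01 TPM, without overlap with Chst15. The sum over the 10 members was 369 ± 30.1 TPM at baseline and 300.9 ± 27.3 TPM after bicuculline in Control-shRNA. In Dnmt3a1-shRNA2 it was 375 ± 33.7 and 303 ± 22.3 TPM. Relative to TMM, log2(TPM + 1) moved the median of all genes after bicuculline by −0.147 in the control and −0.123 in the knockdown cultures. The size of the change in the sum therefore depends on the scale, and the sum was not computed on another scale. Chst1 alone made up 35.6% of the sum at baseline and 23.0% after bicuculline in the control cultures.

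The genes whose levels followed Chst12 most closely over the 16 libraries, of 13880 that averaged 1 CPM or more, were Fbxo21, Oprl1, Lrrn2, Qsox2 and Bcl7a. Their Pearson correlations with Chst12 in log2 CPM were 0.994, 0.993, 0.991, 0.990 and 0.990, described without a test because the points share the libraries and the contrast with bicuculline. All 5 were lower after bicuculline, by less than Chst12. Oprl1, the nociceptin receptor, had log2 fold changes of −1.63 and −1.88 in the control and knockdown cultures, and Lrrn2, a leucine-rich repeat protein of neurons, had −1.51 and −1.79. Fbxo21, an F-box protein, had −0.78 and −0.845.

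The other genes of sulphated glycans were taken from 8 lists of 95 genes, of which 85 were tested. After bicuculline in the knockdown cultures, 12 of the 85 (14.1%) were called lower and 7 (8.24%) higher by edgeR, against 13.2% and 12.6% of all genes, so neither share stood far above the background. In the control cultures 9 were called lower and 7 higher, against 11.1% and 10.8%. Among the 16 enzymes that build chondroitin and dermatan chains, 3 were called lower and 1 higher. Pxylp1, the xylose phosphatase, went from 19.4 ± 1.85 to 7.78 ± 1.24 CPM (SD, n = 4) in the knockdown cultures, a log2 fold change of −1.31 (SE 0.11; edgeR adjusted p = 3.83e-08). B3galt6, a galactosyltransferase of the linkage region, fell by 1.07 (SE 0.10; edgeR adjusted p = 1.82e-07), and so did B4galt7, which is named after its values were seen, by 0.77. Chsy3, a chondroitin synthase, rose from 7.42 ± 0.75 to 14.5 ± 1.80 CPM, a log2 fold change of 0.97 (SE 0.10; edgeR adjusted p = 4.21e-07). Those 4 were also called in the control cultures, in the same directions. Of the 17 tested carrier proteins, Acan, which encodes aggrecan, rose from 14.96 ± 1.24 to 115.7 ± 23.5 CPM in the knockdown cultures, with a log2 fold change of 2.95 (SE 0.18; edgeR adjusted p = 7.05e-10), and from 24.9 ± 7.78 to 117.2 ± 12.2 CPM in the control cultures. Kera, which encodes the keratan sulphate proteoglycan keratocan, fell by 2.0 (SE 0.62; edgeR adjusted p = 0.0139), but from a level of only 0.39 CPM, and its libraries overlapped.

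Heparan sulphate enzymes were called in both directions in the knockdown cultures after bicuculline, 5 higher and 2 lower of 21. For these and the lists that follow, the shares over all genes were 12.6% called higher and 13.2% called lower, and with 5 to 21 genes a list the counts are small. Ext1, a heparan sulphate polymerase, rose from 57.6 ± 3.98 to 137.3 ± 7.23 CPM, a log2 fold change of 1.25 (SE 0.06; edgeR adjusted p = 5.61e-11), and Glce, the glucuronyl epimerase, rose by 0.99 (SE 0.07; edgeR adjusted p = 1.69e-09). The other 3 that rose were the 3-O-sulfotransferases Hs3st1, Hs3st2 and Hs3st5, by 0.73, 0.88 and 0.51, named after their values were seen. Ndst2, an N-sulfotransferase, fell by 1.09 (SE 0.13; edgeR adjusted p = 2.20e-06), and Extl2, a glycosyltransferase that can cap the linkage region, by 0.50 (SE 0.08; edgeR adjusted p = 3.81e-05). Of the 7 enzymes of keratan sulphate and HNK-1 chains, B4galt4 and B3gnt7, which extend keratan sulphate, fell by 0.92 (SE 0.08) and by 1.03 (SE 0.25), with edgeR adjusted p-values of 6.56e-08 and 0.00242. Gal3st3, a galactose 3-O-sulfotransferase, fell by 1.16 (SE 0.10; edgeR adjusted p = 2.38e-08), and was the only gene called of the 5 tested in the list of other Golgi sulfotransferases. Of the 7 tested genes that supply the sulphate donor, only Slc26a2, a sulphate transporter, was called, with a decrease of 0.50 (SE 0.11; edgeR adjusted p = 0.00112). Of the 12 genes of lysosomal breakdown, Sumf1 and Sumf2, of which Sumf1 activates sulfatases, fell by 0.50 (SE 0.09) and 0.70 (SE 0.09), with edgeR adjusted p-values of 0.000256 and 4.35e-06. The calls for Slc26a2, Extl2 and Sumf1 sit at the fold threshold, and 9, 8 and 8 of 26 alternative fits lost them.

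**Figure D4:**
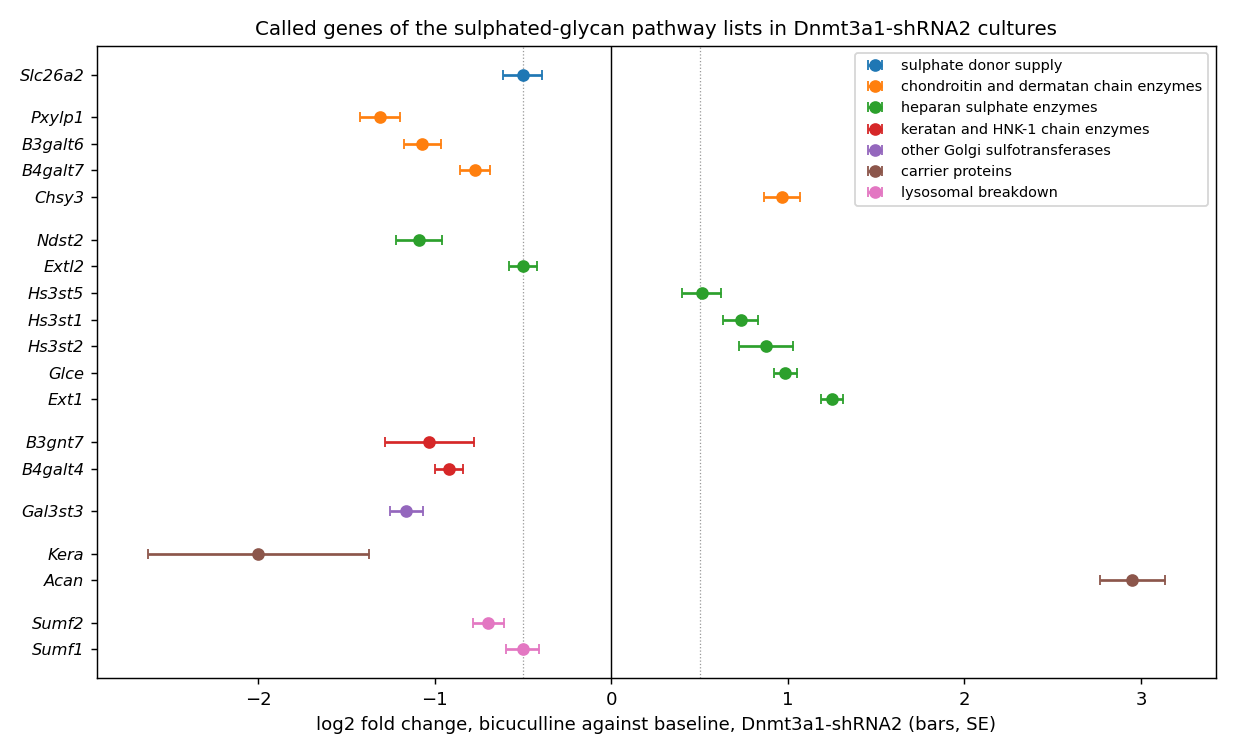
log2 fold changes after bicuculline in the Dnmt3a1-shRNA2 cultures for the 19 called genes of the sulphated-glycan lists, coloured by list. Points are edgeR estimates, bars the SE and dotted lines the fold threshold; 12 genes fell and 7 rose, from −2.0 for Kera to 2.95 for Acan.

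The shRNA called few of these genes. At baseline 2 of 85 (2.35%) were called higher in Dnmt3a1-shRNA2 and 3 (3.53%) lower, against 1.76% and 4.07% of all genes, and with bicuculline 1 (1.18%) higher and 4 (4.71%) lower, against 2.0% and 3.9%. Arsb, the lysosomal enzyme that removes the 4-O-sulphate of N-acetylgalactosamine, was 43.1 ± 5.06 CPM in Control-shRNA and 23.0 ± 2.78 CPM in Dnmt3a1-shRNA2 at baseline, and 38.5 ± 8.10 and 19.7 ± 2.81 CPM with bicuculline (SD, n = 4). It fell by 0.90 (SE 0.14; edgeR adjusted p = 0.000259) and by 0.96 (SE 0.14; edgeR adjusted p = 0.000161), without overlap in either comparison. Galns, which removes 6-O-sulphate, fell by 0.61 (SE 0.08; edgeR adjusted p = 4.92e-05) with bicuculline. At baseline its difference was −0.35 (SE 0.08; edgeR adjusted p = 0.00543), under the fold threshold. Sgsh, a sulphohydrolase of heparan sulphate, fell by 0.63 (SE 0.19; edgeR adjusted p = 0.0287) at baseline and by 0.61 with bicuculline, where its libraries overlapped. Slc26a1, a sulphate transporter, fell by 1.02 (SE 0.30; edgeR adjusted p = 0.0253) with bicuculline, but at a low level, from 2.11 to 1.03 CPM. At baseline the Slc26a1 difference was −0.83 (SE 0.28; edgeR adjusted p = 0.0537), which was not called. At baseline Csgalnact1, which starts chondroitin chains, rose by 0.51 (SE 0.12; edgeR adjusted p = 0.00715) and B3gat2, a glucuronyltransferase of HNK-1, rose by 0.52 (SE 0.06; edgeR adjusted p = 3.21e-05). Acan was lower at baseline by 0.74 (SE 0.18; edgeR adjusted p = 0.00892) with overlapping libraries, and Lum, which encodes lumican, was higher with bicuculline by 0.67 (SE 0.21; edgeR adjusted p = 0.0334), also with overlap and named after its values were seen. The calls of Csgalnact1, B3gat2, Sgsh and Slc26a1 were lost in 9, 5, 6 and 6 of 26 alternative fits.

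Markers of the cell types in the cultures were read beside these results, and none of the tested markers was at 0 in all 16 libraries. The summed level of 6 neuronal markers was 6120 to 6850 CPM in Control-shRNA at baseline and 6870 to 7240 CPM after bicuculline, just above it. In Dnmt3a1-shRNA2 it was 6850 to 8050 CPM at baseline and 7390 to 8440 CPM after bicuculline, with overlap, and these groups reached higher than those of Control-shRNA. Of these 6, Tubb3, a neuronal tubulin named after its values were seen, was called lower after bicuculline in both shRNAs, by 0.77 and 1.12 on the log2 scale. By the shRNA Tubb3 was called higher at baseline, by 0.51. Of the 6 markers of GABAergic neurons, 5 were called higher after bicuculline in both shRNAs, and their sum went from 1710 to 2040 CPM at baseline to 2530 to 2930 CPM in Control-shRNA, and from 1310 to 1530 to 2200 to 2600 CPM in Dnmt3a1-shRNA2. None of the 8 astrocyte markers was called after bicuculline, with sums of 701 to 1040 CPM at baseline and 701 to 1080 CPM after it. Of these 8, S100b alone was called higher by the shRNA, in both conditions. Its level was low, with means of 0.75 and 1.33 CPM at baseline, and its libraries overlapped with bicuculline. The median log2 difference of the 8 between the shRNAs was 0.404 at baseline and 0.425 with bicuculline, against 0.007 and −0.006 for all genes. The sums of the other lists were 98.6 to 225 CPM for 7 tested markers of the oligodendrocyte lineage and 52.5 to 125 CPM for 7 of fibroblasts and vessels. The 2 tested microglial markers summed to 2.63 to 4.15 CPM in the Control-shRNA libraries and 1.52 to 2.58 CPM in the Dnmt3a1-shRNA2 libraries, without overlap, and the other 4 had too few counts to be tested. Csf1r, named after its values were seen, was called lower by the shRNA in both conditions, as were the lysosomal genes Arsb and Sgsh, and the part of the microglial markers in those results was not tested. Over all 6 lists, 6 of the 36 tested markers (16.7%) were called higher and 2 (5.56%) lower after bicuculline in Dnmt3a1-shRNA2, against 12.6% and 13.2% of all genes. By the shRNA at baseline 3 (8.33%) were called higher and 3 (8.33%) lower, against 1.76% and 4.07%. The higher were Tubb3, S100b and Pdgfrb and the lower were Npy, Sst and Csf1r, all named after their values were seen. With bicuculline 2 (5.56%) were called higher, S100b and Lum, and 2 (5.56%) lower, Npy and Csf1r, against 2.0% and 3.9%. The part of these shifts in the results for the sulfotransferases was not tested.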

How the data were processed

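RNA-seq libraries of 16 mouse hippocampal cultures were grouped by the shRNA and the condition in the sample labels. The authors trimmed the reads with Trim Galore 0.6.4 and quantified them with kallisto (0.4.6 in the processing notes; the study gives another version) on GRCm38.p6. They deposited estimated counts per gene, summed over transcripts and not scaled, and TPM per gene, which the authors scaled for transcript length and library total. Whether strand was used is not given in the sources used here. Without the version, 55144 of 55385 identifiers matched GENCODE M21, which gave symbols and coordinates.

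The deposited estimated counts were rounded and analysed in R 4.3.3 with edgeR 4.0.16, using TMM scaling, filterByExpr by group, and 1 quasi-likelihood fit of 4 groups to 17222 genes, with Benjamini-Hochberg adjustment over all of them. A call required an adjusted p-value under 0.05 together with a log2 fold change beyond 0.5 in either direction, and for the difference between responses the adjusted p-value only. The fit was tested on simulated data, where it missed part of the known changes, and the limit for accepting that test was lowered after a first limit was not met. Depth was 28912697 to 29586355 counted pairs a library, and no 2 libraries of a group agreed within sampling noise. Alternatives were limma 3.58.1 with voom and on log2(TPM + 1) and log2(TPM + 0.1), DESeq2 1.42.0, other scalings, filters and fold thresholds, a replicate block, fits of only 2 groups, and fits that each left out 1 library.

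The members, the gene lists and the tests were chosen with earlier results of these data known. Named genes were the 10 members, Dnmt3a, in each pathway list and direction the 2 called genes with the largest change after bicuculline in Dnmt3a1-shRNA2, the pathway genes called by the shRNA whose groups did not overlap, and the 5 genes most correlated with Chst12 (log2 of CPM + 0.5). Others are marked in the text.

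Groups carry the replicate numbers 1 to 4 in the labels, without a statement that a number marks a shared preparation. The deviation of each library from its group mean was correlated, across genes, between libraries of the same number. Pearson's r was 0.142 to 0.221 between the conditions of Control-shRNA and 0.204 to 0.355 between the shRNAs at baseline, above 0.1 for every number. Libraries of the same number thus deviated alike to a small degree, and what a number marks was not tested. It was 0.0631 to 0.337 and 0.0667 to 0.388 in the other 2 comparisons, where 1 number was below 0.1. The fit of the design has no block, and all values given come from it unless a block is named.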

Additional observations from a re-analysis of the deposited data

How the results depend on the processing

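The decrease of Chst1 after bicuculline in Dnmt3a1-shRNA2 stayed past both thresholds in all 26 alternative fits, with log2 fold changes of −0.81 to −0.58. That of Chst15 did so in 25. For Chst12, whose decrease led to the choice of the family, the log2 fold change was −2.68 to −2.34 over these fits, as a description. The call of Chst2 depended on its place at the fold threshold: DESeq2 (0.52), DESeq2 size factors (0.52), a filter of at least 10 counts (0.51) and a fit of only 2 groups (0.51) called it, and so did fits without replicate 2 (0.50) or 3 (0.53) of the Dnmt3a1-shRNA2 baseline group or without replicate 2 or 3 (0.51 each) of its bicuculline group. Chst3, Chst7 and Chst14 had 14 to 85 counts a library, and their intervals are the widest of the members. The fits of only 2 groups and the fold thresholds give no value for the difference between responses.

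With no fold threshold, 6 members were called after bicuculline in Dnmt3a1-shRNA2 and 2 in each comparison of the shRNAs. The counts of pathway genes, of 85 tested, were 38 and 40 after bicuculline in Control-shRNA and Dnmt3a1-shRNA2. Between the shRNAs they were 22 at baseline and 28 with bicuculline. Over all 17222 genes, the adjusted p-value alone passed 7131 and 7919 after bicuculline in Control-shRNA and Dnmt3a1-shRNA2. Between the shRNAs it passed 2809 genes at baseline and 3046 with bicuculline. With a fold threshold of 1, 1 member was past it after bicuculline in each shRNA, Chst12, whose decrease led to the choice. The pathway counts were then 4, 8, 0 and 1. The share of all genes at that threshold is not given here, so these counts are not read as a result about the lists. The pathway counts between the shRNAs at baseline were 3 with library sizes only and 3 with log2(TPM + 1). With bicuculline they were 3 with log2(TPM + 1), 3 with log2(TPM + 0.1) and 3 with only 2 groups. In the same order, these fits called 1119 and 823 of all genes at baseline and 787, 1018 and 910 with bicuculline. They tested 17222 genes, or 16349 with only 2 groups. With 1 library left out, 3 to 4 members were called after bicuculline in either shRNA and 0 to 0 in the other comparisons. The pathway counts were 15 to 20, 16 to 20, 2 to 7 and 2 to 6. Of the 17463 to 17511 genes tested, these fits called 3619 to 3837, 4271 to 4560, 827 to 1122 and 864 to 1152. The lowest pathway count, 2, came without replicate 4 of the Dnmt3a1-shRNA2 baseline group and without replicate 4 of the Dnmt3a1-shRNA2 bicuculline group. Beyond the construction of these alternatives, the cause was not tested.

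Small differences changed sign. With library sizes only, Chst2 was −0.0207 at baseline and −0.05405 with bicuculline between the shRNAs, Chst15 was −0.0455 with bicuculline, and Chst11 was −0.012 after bicuculline in Dnmt3a1-shRNA2. With log2(TPM + 1) and log2(TPM + 0.1), the values between the shRNAs at baseline were −0.0604 and −0.06125 for Chst2, −0.0248 and −0.0258 for Chst8 and −0.0255 and −0.0269 for Chst15, and that of Chst3 was −0.003201 with the latter. With bicuculline they were −0.0862 and −0.0872 for Chst2, −0.0304 and −0.0255 for Chst12 and −0.0704 and −0.0722 for Chst15. After bicuculline in Dnmt3a1-shRNA2 they were −0.0135 and −0.0189 for Chst7, −0.0197 and −0.02005 for Chst10 and −0.0535 and −0.0547 for Chst11. With 1 library left out, the difference between the shRNAs ranged from −0.01099 to 0.323 for Chst3 and −0.0257 to 0.292 for Chst7 at baseline. With bicuculline it ranged from −0.0144 to 0.0329 for Chst2, −0.0422 to 0.198 for Chst12, −0.282 to 0.09946 for Chst14 and −0.124 to 0.1285 for Chst15. The difference between responses ranged from −0.0846 to 0.274 for Chst3, −0.0177 to 0.0429 for Chst11 and −0.229 to 0.0207 for Chst15.

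A fit with the replicate number as a block changed no call of a member in the tested comparisons. By the adjusted p-value alone it passed 8 members after bicuculline in Dnmt3a1-shRNA2 in place of 6. These added Chst3 (adjusted p = 0.00709 in place of 0.159) and Chst8 (0.0249 in place of 0.173). With bicuculline between the shRNAs it passed 3 in place of 2, adding Chst1 (0.0389 in place of 0.116). Over all 17222 genes it passed 9398 after bicuculline in Dnmt3a1-shRNA2 and 5158 with bicuculline between the shRNAs. The block fit called 3 members after bicuculline in Dnmt3a1-shRNA2, 5 in Control-shRNA and 0 between the shRNAs. It called 19 and 17 pathway genes after bicuculline in Dnmt3a1-shRNA2 and Control-shRNA, and 6 and 6 between the shRNAs at baseline and with bicuculline. Of all 17222 genes it called 4612, 3986, 1284 and 1338 in the same order. Over all genes the difference between responses had 3 calls with the block, 3 with no filter and 18 by DESeq2.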
